A study of Mus musculus with 12 samples.

Results

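Imprinted genes were followed in the developing mouse cerebral cortex. The group holds 36 genes that are listed as imprinted in the mouse, all of them matched by symbol among the 50600 gene identifiers of the count tables, and the rule for the group is that list and not a measured level, although the list was drawn up with earlier results of these data known. RNA was sequenced from the cortex of C57BL/6 mice (C57Bl6/J in the series' design text) at embryonic days 11, 13 and 17 (E11, E13, E17) and on postnatal day 1 (P1), and age is the only difference that the labels name. There were 3 libraries for each age, A, B and C. A library held the RNA of a single animal's cortex, and no litter gave more than 1 animal of an age. The series title names the handling of zinc in the forming cortex as its subject. The counts give the total RNA of a gene and do not separate the maternal from the paternal copy, so no statement on imprinting itself can be made from them.

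An imprinted gene is transcribed mainly from the copy inherited from the mother or mainly from the copy inherited from the father, according to DNA methylation that was laid down in the germ line. Many imprinted genes act on fetal growth, where paternally expressed genes such as Igf2 tend to promote it and maternally expressed genes such as Igf2r, Cdkn1c and H19 tend to restrain it. Others are highly expressed in neurons, and several, Ube3a among them, are imprinted in some tissues or cell types only. Imprinted genes lie in clusters, in which neighbours can be expressed from opposite parental copies and can share a promoter region or a control region.

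The start regions of Peg3 and Usp29 show how closely such neighbours can lie. The RefSeq promoter table (build GRCm38.p6) gives windows of 300 bases, 250 before and 50 after an annotated start, and it held 49 windows for 29 of the 36 genes. Peg3 and Usp29 start on opposite strands of chromosome 7, and their windows, chr7:6730370-6730669 (minus strand) and chr7:6730333-6730632 (plus strand), share 263 bases. They are printed because Peg3 and Usp29 changed in opposite directions, as described with the neighbouring genes. Each is printed 5′ to 3′ on the strand of its own gene, and the capitals mark the palindrome GGGGCCCC, a sequence that the zinc finger protein Plagl1, also an imprinted gene product, is known to bind.
Peg3: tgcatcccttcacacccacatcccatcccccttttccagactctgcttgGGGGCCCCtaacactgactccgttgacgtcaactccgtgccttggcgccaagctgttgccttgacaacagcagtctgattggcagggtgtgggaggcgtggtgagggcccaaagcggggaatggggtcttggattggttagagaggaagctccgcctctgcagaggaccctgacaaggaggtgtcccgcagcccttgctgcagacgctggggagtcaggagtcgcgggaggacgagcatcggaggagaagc
Usp29: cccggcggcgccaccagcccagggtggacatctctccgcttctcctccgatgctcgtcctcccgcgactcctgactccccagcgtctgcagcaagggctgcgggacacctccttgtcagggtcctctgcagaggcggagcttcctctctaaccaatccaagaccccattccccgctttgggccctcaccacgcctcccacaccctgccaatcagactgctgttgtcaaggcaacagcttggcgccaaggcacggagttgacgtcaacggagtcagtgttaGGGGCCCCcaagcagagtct
The other 2 windows with this sequence belong to Rasgrf1 and to 1 of the 5 Begain windows, and the match is shown with 20 bases on each side. These stretches are chr9:89909697-89909744 (plus strand) and chr12:109053082-109053129 (minus strand).
Rasgrf1: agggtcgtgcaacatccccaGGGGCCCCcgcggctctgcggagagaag
Begain: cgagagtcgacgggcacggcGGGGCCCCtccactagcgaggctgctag
GGGGCCCC, which reads the same on both strands, was thus in 4 of the 49 windows (8.16%), 2 of them holding the same site, and in 1.08% of all 32851 windows of the table. TATAAA, searched on both strands, was in 10 windows of imprinted genes (20.4%, against 13.6% of all windows), and CCATNTT in 6 (12.2%, against 16.1%). The median number of CpG dinucleotides per window was 17, against 7 over all windows. Such matches describe the letters of these windows and not the binding of a factor.

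Total counts ran from 28173745 to 45858712 per library. Levels are given as CPM, counts scaled to 1000000 per library after TMM adjustment (a factor that sets the bulk of genes level between libraries). The cortical gene Emx1 was present in all 12 libraries, at 30.3 CPM or more. The makeup of the tissue changed with age: 8 neuronal markers summed to between 1182 and 1377 CPM at E11 and to between 10019.9 and 10426 CPM at P1, and 8 markers of radial glia and neuroepithelium went from between 2908 and 3322 CPM to between 307 and 357 CPM. Meningeal fibroblast markers (8 genes, Col1a1 and Lum among them) summed to between 771 and 1422 CPM in the E11 and E13 libraries and to between 14.6 and 55.4 CPM at E17 and P1, where P1 A was highest. Choroid plexus markers (7 genes) lay between 43.4 and 399 CPM at E11 and E13 and at 9.24 CPM or less later, and 10 erythroid markers fell from between 5742 and 16478 CPM at E11 to between 45.6 and 83.9 CPM at P1. In such bulk samples, fewer cells of a type and less RNA per cell cannot be told apart, and the part of these other cell types in the changes described here was not tested.

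The imprinted genes as a sum took a smaller part of the RNA with each age. Between E11 and P1 the net decrease of the sum was carried by a few of them. Their counts made up 0.674, 0.716 and 0.725% of all counts in the E11 libraries, 0.605, 0.554 and 0.607% at E13, 0.425, 0.425 and 0.456% at E17, and 0.383, 0.38 and 0.387% at P1, with no overlap between the ages. Their summed level went from between 6276 and 6633 CPM at E11 to between 4079 and 4204 CPM at P1. Grb10, Mest, Plagl1 and H19, set apart after their values were seen, together went from between 2644 and 2968 CPM to between 123 and 147 CPM. The other 32 genes summed to between 3632 and 3795 CPM at E11 and between 3949 and 4082 CPM at P1. That sum is the net of rises, such as those of Snrpn and Peg13, and falls, such as those of Igf2 and Peg10. At E17 the 4 genes summed to between 264 and 337 CPM and the other 32 to between 4226 and 4565 CPM. Both sums thus fell from E17 to P1. Among the 32, Nnat alone went from a mean of 1160.3 CPM at E17 to 719 CPM at P1. The fall of that sum therefore does not describe the 32 genes at large. By mean CPM, 12 of the 34 genes with enough counts to be tested were highest at E11, 3 at E13, 8 at E17 and 11 at P1. Over all 17847 tested genes, 35.3% were highest at E11, 14.4% at E13, 17.3% at E17 and 33.1% at P1.

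Most imprinted genes differed between the ages, as did most genes of the cortex. In edgeR's quasi-likelihood test with Benjamini-Hochberg adjustment over all tested genes, 31 of the 34 differed across the 4 ages at an adjusted p under 0.05, where 90.2% of all tested genes did. The 3 that did not were Gnas, Impact and Kcnq1ot1, of which Gnas passed in 6 alternatives. From E11 to E13, 22 of the 34 passed (background 40.1%): 12 rose (background 22.6%) and 10 fell (17.5%). There was 1 rise of 2-fold or more (background 6.26%) and there were 3 such falls (3.5%), against 9.76% of all genes in either direction. From E13 to E17, 26 passed (background 73.8%), 13 of them higher (36.8%) and 13 lower (37%). The changes of 2-fold or more were 8 rises (background 18.8%) and 8 falls (15.5%), against 34.3% in either direction. From E17 to P1, 21 passed (background 49.9%), 6 of them higher (24%) and 15 lower (25.9%). Here 2 rises (background 6.29%) and 4 falls (3.43%) reached 2-fold, against 9.72% in either direction. Between E11 and P1, the ends of the series, 29 passed (background 82.3%), 13 of them higher (40.5%) and 16 lower (41.8%). Of these, 10 rises (background 25.9%) and 12 falls (22.7%) reached 2-fold, against 48.6% in either direction. The levels of the ages compared did not overlap for 25 genes at the first step (background 51.8%), 26 at the second (76.1%), 23 at the third (62.4%) and 29 between E11 and P1 (84.5%).

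**Figure D1:**
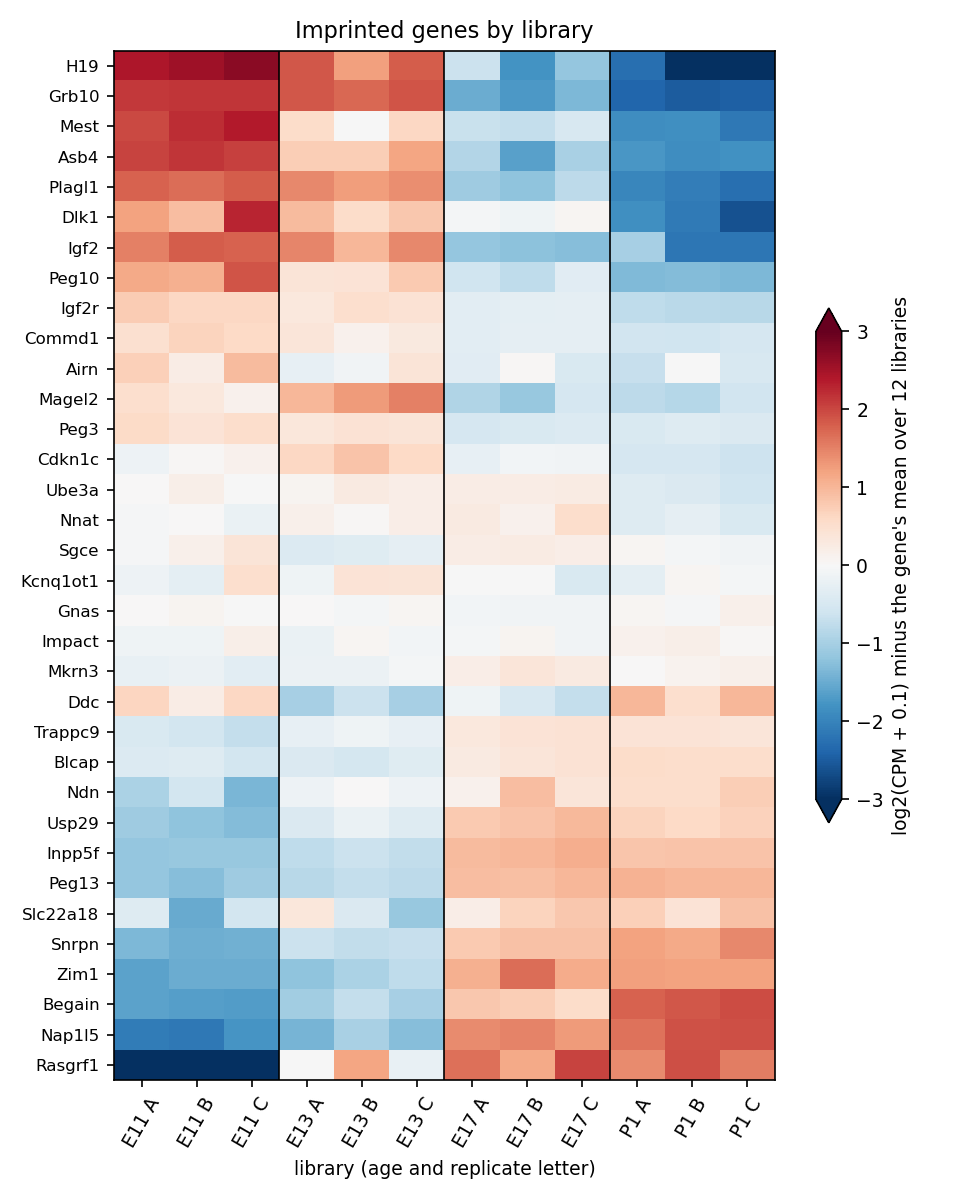
Level of the 34 tested imprinted genes (rows, ordered by their change from E11 to P1) in each of the 12 libraries (columns), as log2(CPM + 0.1) minus the gene's mean, with red above and blue below the mean and the colours ending at 3 in either direction. The upper rows, from H19 to Igf2r, are red at E11 and blue at P1, the rows around Gnas and Impact stay pale, and the lower rows, from Usp29 to Rasgrf1, are blue at E11 and red at E17 and P1.

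Of the 34, 8 fell at each of the 3 steps between neighbouring ages: Igf2r, Dlk1, Grb10, Plagl1, Mest, Peg10, Asb4 and Commd1 (background 4.68%). The genes that rose at each step were Snrpn, Nap1l5 and Begain (3 of 34, background 6.17%). Dlk1 missed the threshold at its first step in 15 alternatives (adjusted p from 0.0511 to 0.312), without any 1 of 10 libraries among them, and at its second step in 7 (0.0607 to 0.117). Peg10 lost its last step without E17 C and Commd1 its last without P1 B, while Plagl1 lost its first when E11 C, E13 C and also E17 A were left out. Among the 19 genes usually expressed from the paternal copy, 7 rose and 9 fell from E11 to P1 (median log2 change -0.21). Of the 9 usually expressed from the maternal copy 7 could be tested, and 2 rose and 5 fell (median -0.55). Among the other 8 genes, whose imprinting depends on tissue or transcript, 4 rose and 2 fell (median 0.67). Over all tested genes the median was -0.04, with 40.5% higher and 41.8% lower.

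**Figure D2:**
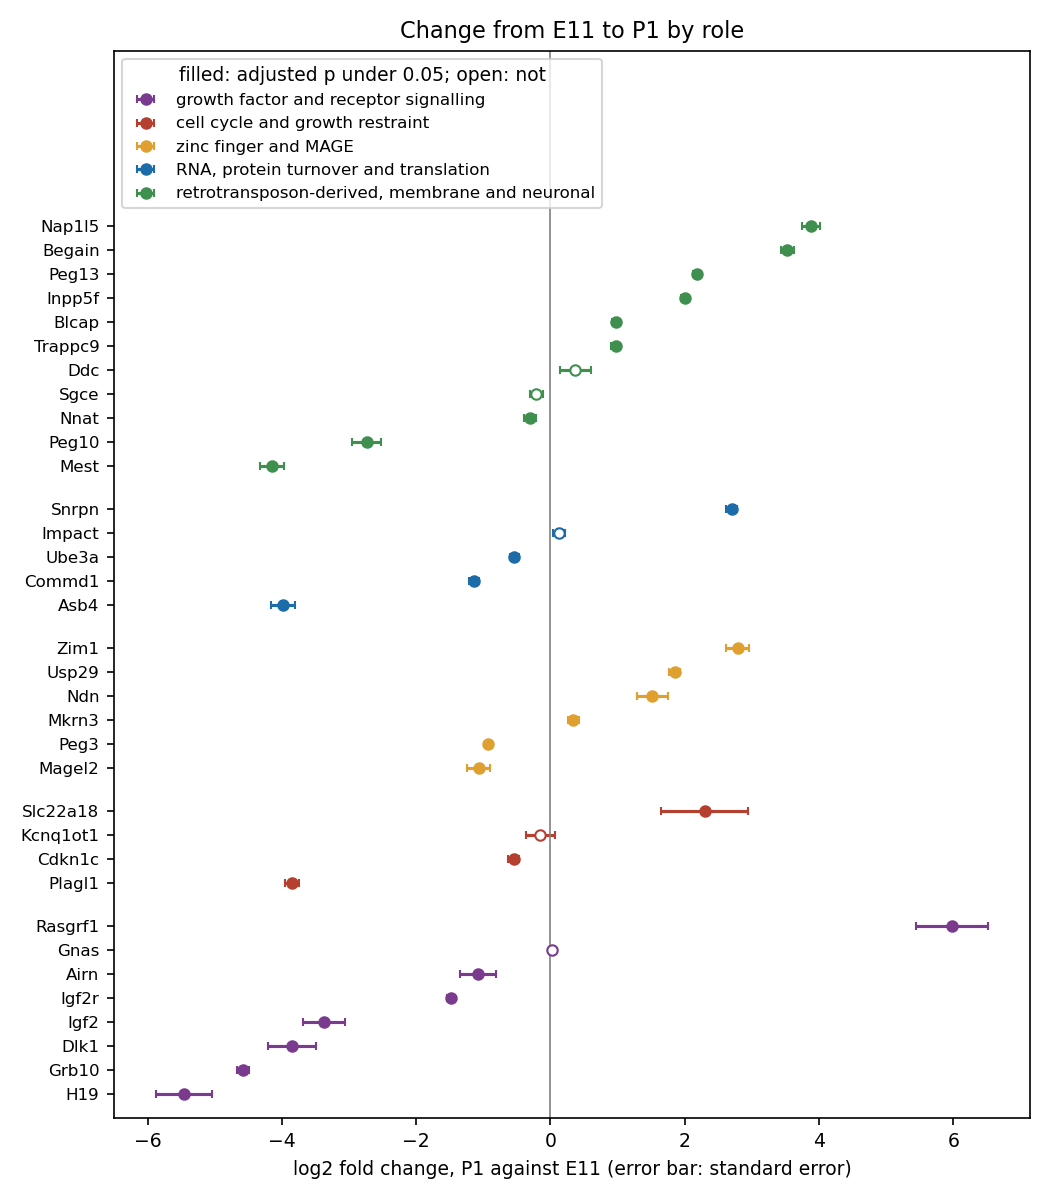
Change of each tested imprinted gene from E11 to P1, as log2 fold change with its standard error, grouped by role (colours), with filled points for an adjusted p under 0.05. The growth factor and receptor signalling group lies mostly to the left, from H19 at -5.46 to Airn at -1.08, with Rasgrf1 at 5.98. The group of retrotransposon-derived, membrane and neuronal genes spans from Mest at -4.15 to Nap1l5 at 3.88.

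H19 and Grb10, both in the growth signalling group, had the largest falls. Mest (log2 change -4.15) and Asb4 (-3.99), of other groups, came next. The growth signalling group includes the noncoding RNAs H19 and Airn. Of its 8 tested genes, 6 fell by 2-fold or more from E11 to P1 (background 22.7%), Rasgrf1 rose and Gnas did not pass. The median log2 change of the 8 was -2.42. H19 is a long noncoding RNA, expressed from the maternal copy next to Igf2, that hosts a microRNA. It stood at 418, 450.4 and 504 CPM in the E11 libraries, at 284, 181 and 275 at E13, at 49.3, 22.2 and 34.7 at E17 and at 16.1, 6.01 and 9.24 at P1. No 2 ages overlapped, and the level at P1 was 43.9-fold lower than at E11 (log2 change -5.46 ± 0.42 SE, adjusted p = 9.09e-07). The first step missed the threshold (-0.89 ± 0.34, adjusted p = 0.0645) and passed it in 6 alternatives, while the fall to E17 (-2.80 ± 0.37, adjusted p = 7.73e-05) and the fall to P1 (-1.76 ± 0.39, adjusted p = 0.00433) passed.

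Igf2, the fetal insulin-like growth factor, was also lower at E17 than at E11 and E13. Its levels were 298, 371 and 359.9 CPM at E11, 292, 209.7 and 285 at E13, and 47, 44.8 and 43.4 at E17. At P1 they were 52.8, 23.5 and 23.4 CPM, so P1 A lay above every E17 library and the other P1 libraries below. Igf2 fell 5.82-fold from E13 to E17 (adjusted p = 2.67e-05) and was 10.3-fold lower at P1 than at E11 (adjusted p = 2.6e-06). The last step did not pass with all libraries (log2 change -0.44 ± 0.29, adjusted p = 0.243), and without P1 A it did (-0.92, adjusted p = 0.000384). Without P1 A the first step passed as well (-0.40, adjusted p = 0.0182), where it had an adjusted p of 0.302 with all libraries. P1 A also had the highest meningeal fibroblast sum of its age, 55.4 CPM against 14.6 and 16.7, and the highest H19, and the part of those cells in the Igf2 level was not tested.

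**Figure D3:**
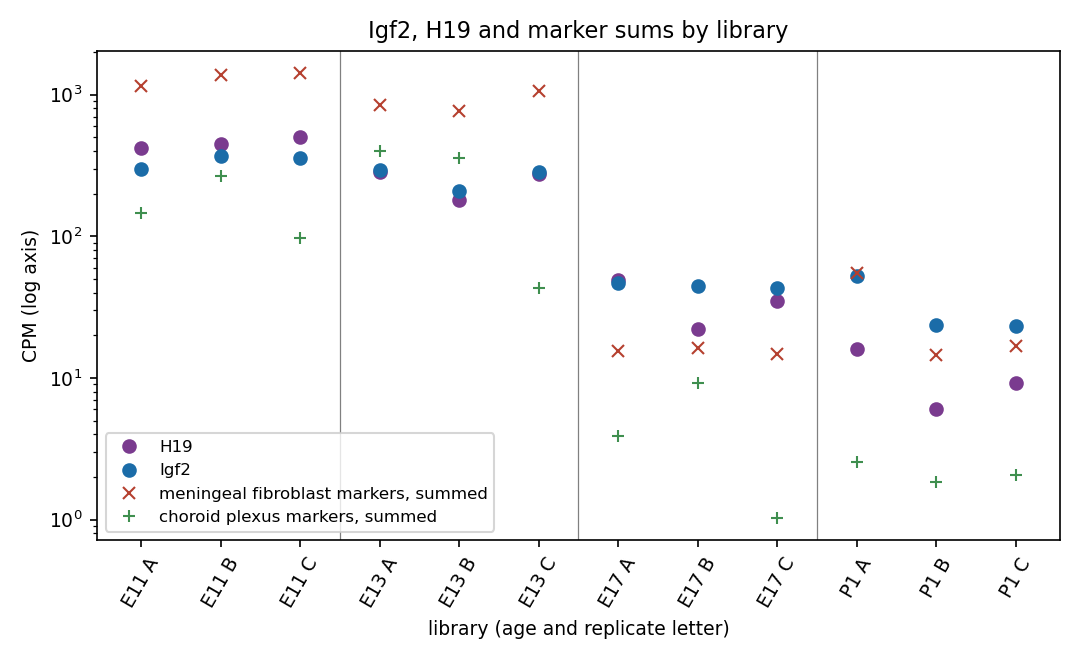
Igf2 and H19 (filled points) and the summed markers of meningeal fibroblasts and choroid plexus (crosses) in each of the 12 libraries, in CPM on a log axis. All 4 measures are lower in the E17 and P1 libraries than at E11 and E13, and within P1 the library A is highest in Igf2, H19 and the meningeal sum (52.8, 16.1 and 55.4 CPM).

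Per 1000 bases of exon, the ratio of Igf2 to H19 counts lay between 0.307 and 0.354 at E11. It lay between 0.442 and 0.497 at E13, between 0.41 and 0.865 at E17 and between 1.09 and 1.68 at P1. The order of the pair thus turned. Igf2r, the receptor that carries IGF2 to the lysosome, fell less and more evenly. It measured 207, 188 and 188 CPM at E11, 152, 171 and 165 at E13, 96.9, 99.4 and 101 at E17 and 71.7, 69.4 and 68.2 at P1. No step had overlapping ages, and the level at P1 was 2.79-fold lower than at E11 (adjusted p = 1.5e-11). The ratio of Igf2 to Igf2r counts per 1000 bases lay between 2 and 3.2 in the E11 and E13 libraries and between 0.551 and 1.2 later, with the 1.2 in P1 A. Airn, the noncoding RNA from the opposite strand that silences the paternal Igf2r copy outside neurons, was low throughout, at 2.05 ± 0.511 CPM at E11 and 0.964 ± 0.268 at P1 (SD, n = 3 libraries each). It passed between E11 and P1 (2.12-fold lower, adjusted p = 0.00197) and at none of the 3 steps. Its counts cover only 3597 annotated exon bases in poly(A)+ RNA, so Airn RNA outside these is missed.

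Grb10, an adaptor that restrains insulin and IGF receptor signalling, had the second largest fall. At E11 it was at 1029, 1047 and 1039 CPM, a spread of 0.847% (SD as a percentage of the mean). It was at 863, 772 and 872 CPM at E13, at 84.1, 71.1 and 92.3 at E17 and at 45.1, 41.6 and 43.4 at P1. Its step from E13 to E17 alone was 10.1-fold (log2 change -3.34 ± 0.09, adjusted p = 5.52e-12), and P1 stood 23.9-fold below E11 (adjusted p = 1.36e-13). Grb10 is transcribed from the maternal copy in most tissues and from the paternal copy in neurons, and these counts do not tell the copies apart.

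Dlk1, a transmembrane protein of the Notch ligand type that keeps precursor cells immature, was at 14.5, 11.8 and 30.4 CPM at E11, 12, 9.15 and 11 at E13, 5.98, 5.62 and 6.45 at E17 and 1.65, 1.34 and 0.931 at P1. Library C carried the E11 mean. Between E11 and P1 the fall was 14.5-fold (adjusted p = 7.96e-07). The first step had a log2 change of -0.81 (adjusted p = 0.0485) and of -0.29 (adjusted p = 0.215) without E11 C, though it also missed the threshold under 14 further alternatives. Library E11 C also had the highest sums of ventral telencephalon markers (58 CPM, against 21.8 and 16.1) and hypothalamus markers (16.3 CPM, against 9.22 and 7.75, 13.7 CPM of it Fezf1) of its age. Fezf1 alone set the hypothalamus sum of E11 C apart (6.2 CPM in E11 A and 4.66 in E11 B). Rax (0.473, 0.678 and 0.127 CPM) and Sim1 (0.177, 0.206 and 0.0319 CPM) were lowest in E11 C. Pomc (1.74, 1.62 and 1.85 CPM) and Agrp (0.591, 0.59 and 0.605 CPM) were nearly level. The part of such cells in the Dlk1 level of E11 C was not tested.

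Rasgrf1, a guanine nucleotide exchange factor that couples calcium signals to Ras in neurons, had the largest rise. It was near the floor at E11 (0.177, 0.0884 and 0.0956 CPM), at 2.43, 5.67 and 2.07 CPM at E13, at 7.92, 5.51 and 10.2 at E17 and at 6.68, 9.61 and 7.21 at P1. All later libraries lay above all E11 libraries. The first step was 27.3-fold (log2 change 4.77 ± 0.57, adjusted p = 5.65e-05), the second 2.34-fold (adjusted p = 0.0065), and the third did not pass (adjusted p = 0.969). Gnas, which encodes the stimulatory G protein alpha subunit from a locus with several imprinted promoters, ranged from 947 to 1124 CPM over the 12 libraries (4 ages, adjusted p = 0.09, and from 0.000152 to 0.0491 in 6 alternatives, DESeq2 and 3 settings of scaling and filter among them). A rise of 1.11-fold from E17 to P1 (adjusted p = 0.0376) was lost in 6 alternatives, among them without E17 B, E17 C or P1 C. Of its exon bases 22% overlap transcripts of the opposite strand, and whether the counting used strand is not given in the sources used here. Between E11 and P1 the log2 change of Gnas was 0.03 with TMM and -0.20 (adjusted p = 0.00286) with library size alone, a scaling that moved the median of all genes to -0.26. Calcr, the calcitonin receptor, had 25 counts over the 12 libraries and was not tested.

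Among the genes that restrain the cell cycle, Plagl1 fell throughout and Cdkn1c went up and then down. Plagl1 (Zac1), a zinc finger transcription factor that can halt proliferation and that regulates other imprinted genes, was at 523, 492 and 542 CPM at E11, 415, 368 and 401 at E13, 73.8, 66.6 and 89.1 at E17 and 39.6, 36.4 and 31.9 at P1. No ages overlapped, and the overall fall was 14.4-fold (log2 change -3.85 ± 0.11, adjusted p = 2.71e-12). Cdkn1c (p57), an inhibitor of cyclin-dependent kinases, rose from 62.1, 71.2 and 75.7 CPM at E11 to 106, 125 and 105 at E13 (1.61-fold, adjusted p = 3.27e-05). It fell to 58.4, 65.6 and 64.9 CPM at E17 (adjusted p = 7.83e-07) and to 48.8, 49 and 44.9 at P1 (adjusted p = 0.00143), so its highest libraries were the 3 of E13. Of its exon bases 30.7% overlap Gm44732 on the opposite strand.

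Among the neighbours of Cdkn1c on chromosome 7, Phlda2 and Slc22a18 were near the floor in cortex. Phlda2, a gene that limits placental growth, had 11 counts in all: 6 at E11, 4 at E13, 1 at E17 and 0 at P1. It missed the filter on low counts, and without that filter it passed from E11 to P1 (adjusted p = 0.0392). Its counts in E11 A, B and C were 1, 5 and 0, so that result rests mostly on E11 B. Slc22a18, a membrane transporter, was at 0.0712 ± 0.0627 CPM at E11 and 0.362 ± 0.0737 at P1 (SD, n = 3 libraries each), from 98 counts in all (log2 change 2.30 ± 0.65, adjusted p = 0.00499). The long noncoding RNA Kcnq1ot1, which silences this cluster on the paternal copy, stayed between 10.4 and 20.2 CPM, the highest value being that of E11 C (4 ages, adjusted p = 0.3). A fall of Kcnq1ot1 from E13 to E17 passed only in 3 alternatives (adjusted p from 0.0281 to 0.0386).

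At the Peg3 cluster the genes moved apart. Peg3, a large zinc finger protein, was at 214, 190.4 and 205 CPM at E11 and 181, 193 and 188 at E13, ages that overlapped, then at 101, 104 and 107 at E17 and 104, 109.8 and 106 at P1. Usp29, which encodes a ubiquitin-specific protease and starts in the window shown above, was at 19, 17 and 16 CPM at E11, 29.5, 34.3 and 30.4 at E13, 68.1, 71.6 and 78 at E17 and 63.4, 60.4 and 64.1 at P1. From E13 to E17, Peg3 fell 1.8-fold (log2 change -0.85 ± 0.05, adjusted p = 3.72e-09) and Usp29 rose 2.31-fold (1.21 ± 0.08, adjusted p = 6.79e-09). From E11 to E13 Usp29 rose 1.81-fold (adjusted p = 3.51e-06), while Peg3 did not pass (-0.12, adjusted p = 0.0855). The ratio of Peg3 to Usp29 counts per 1000 bases went from between 15.2 and 17.4 at E11 to between 7.61 and 8.41 at E13, between 1.86 and 2.02 at E17 and between 2.24 and 2.47 at P1, with no overlap between the ages. Both are usually expressed from the paternal copy. Of the Usp29 exon bases 14.3% overlap Zim3 on the opposite strand.

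Zim1, the maternally expressed zinc finger gene beyond Peg3, rose as well, from 2.27, 2.48 and 2.48 CPM at E11 and 3.04, 3.62 and 4.14 at E13 to 15, 23.1 and 15.5 at E17 and 16.8, 16.7 and 16.6 at P1. Its step from E13 to E17 was 4.97-fold (log2 change 2.31 ± 0.16, adjusted p = 1.74e-08), and the earlier rise (0.57, adjusted p = 0.0213) was lost in 5 alternatives (adjusted p from 0.0558 to 0.111), among them without E11 A, E13 B or E13 C.

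The chromosome 7 cluster that corresponds to the human Prader-Willi and Angelman region held rises and falls. Ndn and Magel2 encode proteins of the MAGE family and are both expressed from the paternal copy. Ndn went from 80.9, 107 and 60.5 CPM at E11 to 141, 158 and 140.4 at E13, 171, 298 and 203 at E17 and 225, 228 and 260.1 at P1 (2.87-fold between E11 and P1, adjusted p = 8.89e-05). Its step from E13 to E17 (log2 change 0.61, adjusted p = 0.0278) was 0.36 (adjusted p = 0.122) without E17 B, the highest library, and missed the threshold under 5 further alternatives (adjusted p from 0.0555 to 0.102), among them without E13 A, E13 B or E13 C. Magel2 instead peaked at E13: it was at 13.8, 12 and 10.6 CPM at E11, 19.4, 23.5 and 27.7 at E13, 5.11, 4.3 and 6.73 at E17 and 5.57, 5.28 and 6.49 at P1. It rose 1.93-fold (adjusted p = 0.000557), then fell 4.32-fold (log2 change -2.11 ± 0.17, adjusted p = 1.17e-07), and the last step did not pass. The ratio of Ndn to Magel2 counts per 1000 bases lay between 6.34 and 11.1 at E11 and E13 and between 37.7 and 86.9 at E17 and P1.

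Mkrn3, a RING finger protein known for its role in the timing of puberty, moved little, from 11.3 ± 0.511 CPM at E11 to 16.3 ± 1.02 at E17 and 14.3 ± 0.747 at P1 (SD, n = 3 libraries each). Its rise from E11 to P1 (1.26-fold, adjusted p = 0.00149) missed the threshold when counts were scaled to library size only (adjusted p = 0.22). Snrpn encodes SmN, the neuronal form of a core protein of the splicing machinery. It rose at every step, from 58.7, 54.2 and 55.2 CPM at E11 to 96.9, 90.5 and 93.8 at E13, 258, 275 and 276 at E17 and 348, 331 and 411 at P1, with no overlap (6.48-fold in all, log2 change 2.70 ± 0.08, adjusted p = 9.24e-13). Of its exon bases 27.3% are shared with Snurf and Gm38393 on the same strand, so the split of reads between them is uncertain. Snurf, named for this overlap, rose 6.09-fold (adjusted p = 1.83e-12), and the ratio of Snrpn to Snurf counts per 1000 bases stayed between 0.39 and 0.433 in all libraries.

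Ube3a, the ubiquitin ligase of the same cluster whose paternal copy is silenced in neurons, fell only after E17. It was at 194, 219 and 193 CPM at E11, 204, 231 and 220.3 at E13 and 227, 226 and 229 at E17, ages that lay close together, and at 148, 142 and 128 at P1 (1.63-fold lower than at E17, log2 change -0.71 ± 0.07, adjusted p = 4.35e-06). Of its exon bases 27.3% overlap transcripts of the opposite strand, Snhg14 among them. Snhg14, which runs through Ube3a as the antisense transcript that silences its paternal copy, rose from 20.3 ± 0.714 CPM at E11 to 84.3 ± 4.67 at P1 (SD, n = 3 libraries each; 4.16-fold, adjusted p = 6.94e-09). The ratio of Snrpn to Ube3a counts per 1000 bases moved from between 2.37 and 2.89 at E11 to between 22.2 and 30.7 at P1.

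**Figure D4:**
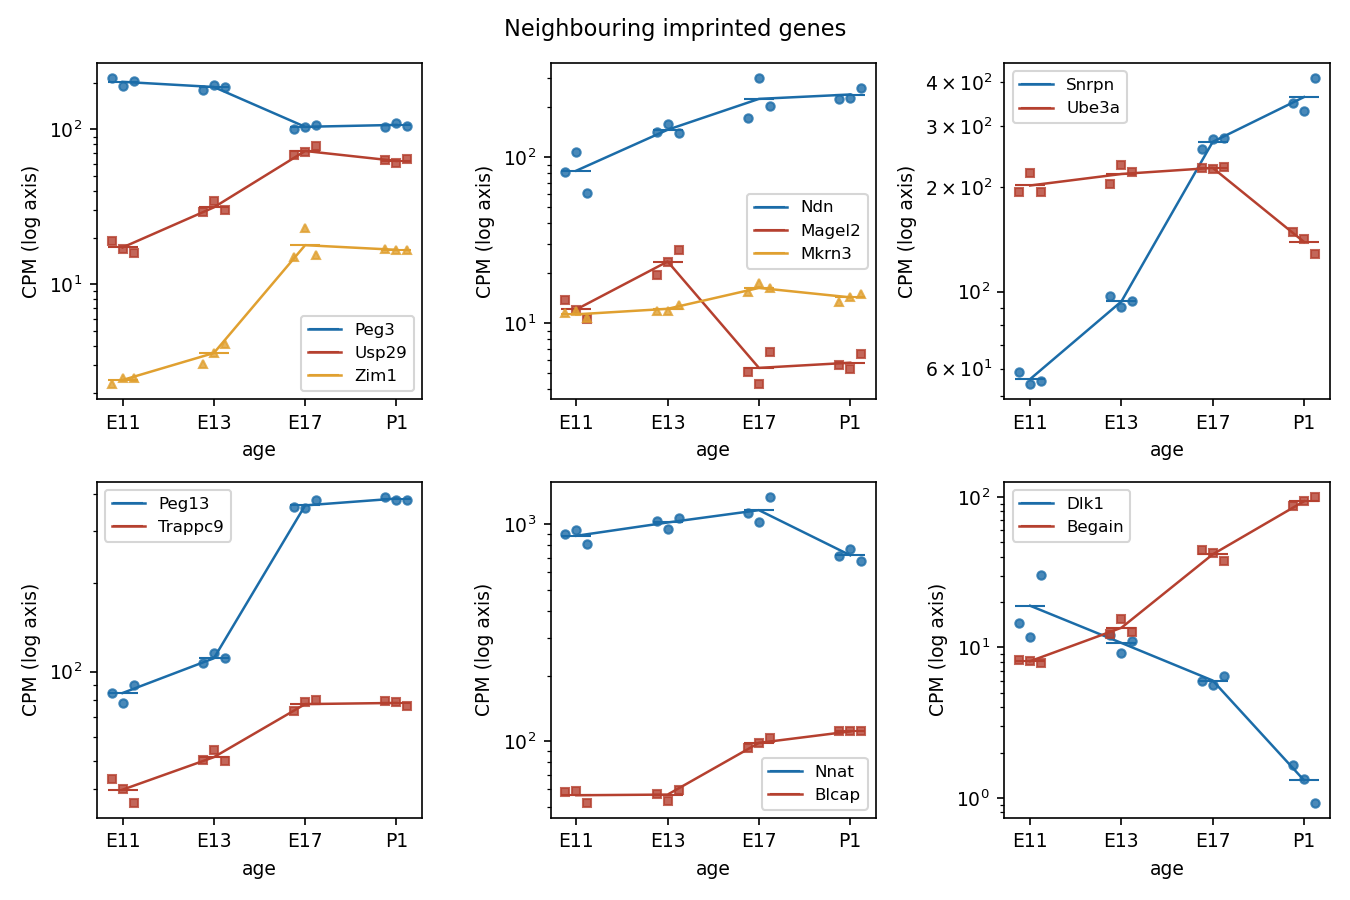
CPM on a log axis against age for imprinted genes that lie near each other, with 1 point per library and a line through the mean of the 3 libraries of an age. Peg3 comes down as Usp29 and Zim1 go up, Ndn and Magel2 part between E13 and E17, and Peg13 rises more steeply than Trappc9. Dlk1 crosses Begain, and Snrpn crosses Ube3a in CPM, which is not set per exon length. Per 1000 bases of exon, Snrpn was above Ube3a from E11 on (ratio between 2.37 and 2.89 at E11).

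Of the remaining genes of RNA and protein turnover, Asb4 and Commd1 fell and Impact did not pass. Asb4, a substrate adaptor of a ubiquitin ligase, went from 17.6, 19.2 and 18.1 CPM at E11 to 7.25, 7.24 and 9.81 at E13, 2.27, 1.32 and 2.11 at E17 and 1.2, 1.11 and 1.15 at P1, a fall of 15.8-fold without overlap (adjusted p = 8.93e-11). Commd1, which takes part in copper handling and in NF-kappaB control, fell 2.2-fold from 49 ± 3.32 to 22.3 ± 0.827 CPM (SD, n = 3 libraries each; adjusted p = 3.82e-09). Impact, a regulator of the translation control kinase GCN2, ranged from 24.8 to 32.2 CPM over the 12 libraries (4 ages, adjusted p = 0.27). A rise of Impact from E11 to P1 passed only in 2 alternatives, both without E11 C (log2 change 0.24, adjusted p = 0.0245 and 0.0402).

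After Rasgrf1, the largest rises from E11 to P1 were those of Nap1l5 and Begain. Nap1l5, an intronless gene of the nucleosome assembly protein family, was at 2.39, 2.33 and 3.06 CPM at E11, 3.99, 5.33 and 4.32 at E13, 28.3, 29.9 and 25.8 at E17 and 33, 40.3 and 41.1 at P1. It rose 14.7-fold without overlap (log2 change 3.88 ± 0.14, adjusted p = 9.33e-12), of which the step from E13 to E17 made 6.15-fold (adjusted p = 6.28e-10). Begain, a protein of the postsynaptic density that binds guanylate kinase domains, was at 8.3, 8.08 and 7.9 CPM at E11, 12.3, 15.5 and 12.7 at E13, 44.5, 42.6 and 37.3 at E17 and 87.1, 93.4 and 100.1 at P1. It rose 11.6-fold (3.53 ± 0.10, adjusted p = 1.02e-12), and among the tested imprinted genes it had, with Ddc, the only rise of 2-fold or more after E17 (2.26-fold, adjusted p = 1.71e-06).

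Peg13 is a noncoding RNA transcribed from within an intron of Trappc9, the gene of a vesicle tethering subunit. Peg13 was at 85, 78.5 and 90.5 CPM at E11, 107, 116 and 111 at E13, 359.6, 357 and 380.0 at E17 and 390.3, 382 and 382 at P1, a rise of 4.55-fold (adjusted p = 5.43e-13). Trappc9 rose 1.96-fold, from 39.9 ± 3.72 to 78.4 ± 1.38 CPM (SD, n = 3 libraries each; adjusted p = 7.21e-09). Per 1000 bases the ratio of Peg13 to Trappc9 counts lay between 3.28 and 4.22 at E11 and E13 and between 7.58 and 8.36 at E17 and P1. Neither passed from E17 to P1. Inpp5f, a phosphoinositide phosphatase with an imprinted transcript in brain, stood at 74.4, 76 and 76.6 CPM at E11, 98.6, 107 and 99.6 at E13, 324, 336 and 354 at E17 and 296, 305 and 305 at P1. It rose 3.32-fold from E13 to E17 (adjusted p = 7.22e-12) and was 3.99-fold above E11 at P1 (adjusted p = 3.26e-13).

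Nnat and Blcap form another nested pair, the small membrane protein neuronatin lying in an intron of Blcap. Nnat had the highest level per 1000 bases of the 36 genes at each age (483, 557, 634 and 393 CPM per 1000 bases, means of 3 libraries). In CPM it was at 901, 938 and 814 at E11, 1039.6, 952 and 1063 at E13, 1125, 1019 and 1337 at E17 and 714, 765 and 678 at P1. Libraries of the first 3 ages overlapped in part, and P1 lay below all of them, 1.61-fold lower than E17 (log2 change -0.69 ± 0.09, adjusted p = 4.77e-05). Blcap, in contrast, was at 56.4 ± 3.63 CPM at E11 and 56.8 ± 3.31 at E13, then at 98.3 ± 5.5 at E17 and 111 ± 0.835 at P1 (SD, n = 3 libraries each), a rise of 1.97-fold between E11 and P1 (adjusted p = 2.9e-09). From E17 to P1 the pair went in opposite directions, though the rise of Blcap there was small (1.13-fold, adjusted p = 0.0278) and lost without E17 A (adjusted p = 0.0791) or E17 B (adjusted p = 0.0647).

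Mest and Peg10, both on chromosome 6, fell. Mest, a hydrolase-like protein of mesoderm and early brain, dropped early: it was at 674, 783 and 883 CPM at E11, 249, 167 and 262 at E13, 106, 104 and 121 at E17 and 46.4, 47.3 and 38.3 at P1. Its step from E11 to E13 was 3.45-fold (log2 change -1.79 ± 0.16, adjusted p = 8.96e-06), and the whole fall was 17.7-fold (adjusted p = 6.63e-10). From E11 to E13, Grb10 and Plagl1 fell by 1.24-fold and 1.32-fold, Peg10 by 1.83-fold, Asb4 by 2.26-fold and Ddc by 2.95-fold. Of the Mest exon bases 23.1% overlap Copg2 on the opposite strand. Peg10, a gene derived from a retrotransposon, was at 129.5, 123 and 215 CPM at E11, 76.5, 77.3 and 101 at E13, 38.4, 34.7 and 46.3 at E17 and 23.1, 23.5 and 23 at P1, a fall of 6.7-fold (adjusted p = 3.97e-07), with E11 C again the highest library.

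Sgce (epsilon-sarcoglycan), whose start lies next to that of Peg10, did not follow it. It was at 22.7 ± 3.3, 15.8 ± 0.903, 23.5 ± 0.448 and 19.7 ± 1.25 CPM at the 4 ages in order (SD, n = 3 libraries each). It fell to E13 (adjusted p = 0.000914), rose to E17 (adjusted p = 0.000123), and did not pass between E11 and P1 (adjusted p = 0.061). The ratio of Peg10 to Sgce counts per 1000 bases went from between 8.73 and 13.1 at E11 to between 1.75 and 1.96 at P1. Ddc, the enzyme that forms dopamine and serotonin and the neighbour of Grb10, was low: 1.36, 1 and 1.34 CPM at E11, 0.37, 0.505 and 0.37 at E13, 0.757, 0.573 and 0.469 at E17 and 1.76, 1.24 and 1.77 at P1. It fell 2.95-fold to E13 (adjusted p = 0.000457) and rose 2.69-fold from E17 to P1 (adjusted p = 0.000383), the lowest libraries being those of E13 and E17.

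Non-imprinted relatives gave a comparison within gene families, with levels set per 1000 bases of exon. Snrpb, which encodes the general form of the protein that Snrpn encodes for neurons, fell 2.21-fold from E11 to P1 (280.3 ± 7.07 to 127 ± 1.89 CPM, SD, n = 3 libraries each, adjusted p = 1.26e-10) while Snrpn rose. Snrpn accounted for 16.3, 14.7 and 15.4% of the pair's counts per base at E11, 25.7, 26.6 and 25% at E13, 65.1, 67.9 and 66% at E17 and 71.3, 70.8 and 74.7% at P1. Thus the larger share passed from Snrpb to Snrpn between E13 and E17. Nap1l1, the widely expressed relative of Nap1l5, fell 3.85-fold (adjusted p = 4.22e-12), and the ratio of Nap1l5 to Nap1l1 counts per 1000 bases went from between 0.00834 and 0.0116 at E11 to between 0.482 and 0.564 at P1. Nap1l2 and Nap1l3, the neuronal relatives, rose 2.98-fold (adjusted p = 9.95e-10) and 7.1-fold (adjusted p = 2.64e-11).

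Dlk1 and Grb10 fell while relatives of theirs rose, and Rasgrf1 and Rasgrf2 both rose. Dlk2, the closest relative of Dlk1, rose from 0.416 ± 0.0927 CPM at E11 to 45.2 ± 5.4 at P1 (SD, n = 3 libraries each; log2 change 6.76 ± 0.20, adjusted p = 1.5e-12), and per 1000 bases the ratio of Dlk1 to Dlk2 counts passed from between 13.1 and 22.2 to between 0.00677 and 0.0145. Grb14 rose 12.4-fold (adjusted p = 2.58e-11), and the ratio of Grb10 to Grb14 counts per 1000 bases went from between 419 and 510.0 at E11 to between 1.5 and 1.58 at P1, so Grb10 remained the higher of the pair. Grb7, the remaining family member, was at 0.32 ± 0.185 CPM at E11 and 0.752 ± 0.119 at P1 (SD, n = 3 libraries each; adjusted p = 0.0044). Rasgrf2 rose like Rasgrf1 but later: it did not pass from E11 to E13 (adjusted p = 0.356), rose from 0.159, 0.505 and 0.123 CPM at E13 to 21.5, 38.3 and 15.4 at E17 (adjusted p = 4.19e-07), and reached 79.7, 80.5 and 93.7 CPM at P1 (adjusted p = 0.000619).

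The relatives of Plagl1 and Cdkn1c moved partly with them. Plagl2 and Plag1 fell 12.1-fold and 15.4-fold from E11 to P1 (adjusted p = 5.02e-13 and 3.75e-13), beside the 14.4-fold fall of Plagl1. Cdkn1b (p27) rose from E11 to E13 as Cdkn1c did (1.52-fold, adjusted p = 0.000194), but did not pass from E13 to E17 (adjusted p = 0.116), where Cdkn1c fell. Cdkn1a (p21) fell 1.7-fold from E11 to P1 (adjusted p = 0.00322). Igf1 fell 2.4-fold from E11 to E13 (adjusted p = 0.000586) and rose 1.83-fold from E17 to P1 (adjusted p = 0.00551). Mkrn1 and Mkrn2 rose 3.03-fold (adjusted p = 2.55e-11) and 1.76-fold (adjusted p = 3.82e-08), Ube3c rose 1.59-fold (adjusted p = 1.06e-08), and Ube3b did not pass (adjusted p = 0.881). The difference between an imprinted gene and its relative was not itself tested.

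**Figure D5:**
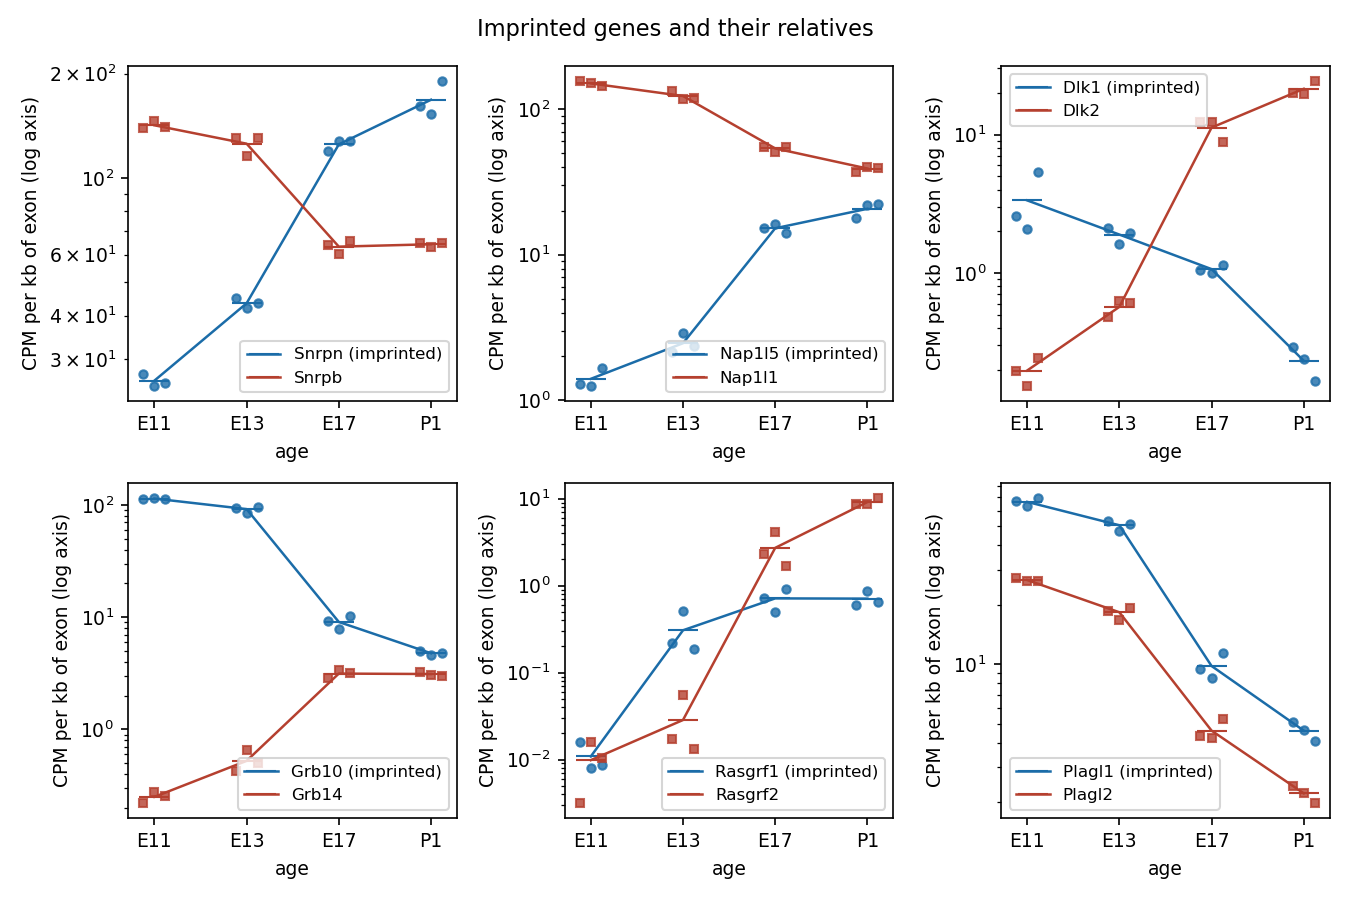
CPM per 1000 bases of exon on a log axis against age, for 6 imprinted genes (blue) and a relative that is not imprinted (red), with 1 point per library and a line through the means. Snrpn crosses Snrpb and Dlk1 crosses Dlk2 between E13 and E17, Grb10 and Grb14 converge, Rasgrf2 rises later than Rasgrf1, and Plagl1 and Plagl2 fall side by side.

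A set of 12 of the 36 genes is known as an imprinted gene network, since Plagl1 is known to regulate several of them. From E11 to P1, 9 of the 12 fell, 7 of them by 2-fold or more, and Ndn rose, while Gnas and Sgce did not pass (background 41.8% lower, 22.7% lower by 2-fold or more). The median log2 change was -2.42. The summed level of the 12 was 4569, 4813 and 4926 CPM at E11, 3745, 3347 and 3773 at E13, 1785, 1852 and 1837 at E17 and 1728, 1629.6 and 1769 at P1. No ages overlapped, and the largest drop was that from E13 to E17. Grb10, Mest, Plagl1 and H19 are among the 12. Together they went from between 2644 and 2968 CPM at E11 to between 123 and 147 CPM at P1. H19, Igf2, Igf2r, Grb10, Dlk1 and Gnas also stand among the growth signalling genes above, so both medians rest largely on the same genes.

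Of 36 further imprinted genes outside the group, 31 could be tested, and from E11 to P1 14 rose and 12 fell (median log2 change 0.10). Between the same ages 40.5% of all tested genes rose and 41.8% fell. The summed level of the 36 further genes was between 1589 and 1719 CPM at E11 and between 2829.8 and 3169 at P1. Without Meg3 and Rian it was between 1445 and 1476 CPM at E11 and between 1392 and 1432 at P1. The largest rises were those of Kcnk9, a potassium channel gene next to Peg13 (0.0992 ± 0.145 to 9.52 ± 0.748 CPM, SD, n = 3 libraries each, adjusted p = 7.84e-09), and of the serotonin receptor gene Htr2a (18.3-fold, adjusted p = 1.3e-08). The largest falls were those of Peg12 (25.6-fold, adjusted p = 5.76e-11), which lies near Ndn and Mkrn3, and of Dcn, an extracellular matrix gene of fibroblasts (15.8-fold, adjusted p = 0.000194). Meg3 and Rian, the maternally expressed noncoding RNAs of the Dlk1 cluster, were looked at after their values were seen. Meg3 rose from 64.1, 59.5 and 112 CPM at E11 to 919.9, 1072 and 1176 at P1 (13.4-fold, adjusted p = 3.07e-07), and Rian rose 5.02-fold (adjusted p = 4.4e-07), while Dlk1 fell. The ratio of Dlk1 to Meg3 counts per 1000 bases went from between 0.632 and 0.864 at E11 to between 0.00253 and 0.00574 at P1.

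Among genes that keep imprints and DNA methylation in place, 13 were listed and 11 tested. From E11 to P1, 2 rose and 7 fell (median log2 change -0.75), a share past the threshold near the background of 82.3%. Uhrf1, which recruits the maintenance methyltransferase to replicating DNA, fell 25.3-fold from 382 ± 4.95 to 15.1 ± 0.78 CPM (SD, n = 3 libraries each, adjusted p = 1.12e-12), and the methyltransferase Dnmt3b fell 5.79-fold (adjusted p = 1.21e-10). The genes that rose were Zfp57 and Zfp445, the zinc finger proteins that protect imprints in the early embryo. Zfp57 went from 51.8, 41.8 and 51.6 CPM at E11 to 222, 222 and 203 at P1 (4.46-fold, adjusted p = 2.91e-07), and Zfp445 rose 1.34-fold (adjusted p = 1.32e-05).

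In the IGF pathway, apart from Igf2 and Igf2r, 4 of 13 tested genes rose and 8 fell from E11 to P1 (15 listed, median log2 change -0.83, background 40.5% higher and 41.8% lower). The falls were led by Igf2bp1 (19-fold, adjusted p = 6.92e-12) and Igf2bp2 (17-fold, adjusted p = 5.9e-10), which encode proteins that bind Igf2 mRNA among others. The largest rises were those of Irs2, a substrate of the insulin and IGF receptors (2.86-fold, adjusted p = 1.64e-08), and of Igfbp7 (2.29-fold, adjusted p = 0.0001). The receptor gene Igf1r did not pass (adjusted p = 0.806).

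Libraries of an age agreed about as closely in the imprinted genes as in other genes. The median spread of the 34 genes (SD as a percentage of the mean) was 9.09% at E11, 8.92% at E13, 7.15% at E17 and 6.22% at P1, against 7.74, 9.39, 7.54 and 7.64% over all tested genes. Among genes with a mean over 1 CPM at P1, Igf2 and H19 had the widest spread there, 51% and 49.4%. Dlk1 had the widest such spread at E11 (53.2%), followed by Peg10 (33%) and Kcnq1ot1 (31.3%), and in all 3 the highest library was E11 C.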

How the data were processed

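Poly(A)+ RNA from 12 cortices was sequenced as stranded single reads of 75 bases from 1 µg of total RNA, per the labels' protocols. The deposited values are raw counts of reads per gene identifier. STAR 2.5.2b, HTSeq 0.5.3 and DESeq2 1.8.1 are named in the submitters' processing notes, without their settings, so build and strandedness of the counting were not given in the sources used here.

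Counts were tested with edgeR 4.0.16 (quasi-likelihood fit, robust, TMM, 1 coefficient per age, 12 libraries) after filterByExpr with a minimum count of 10, which left 17847 genes, with Benjamini-Hochberg adjustment over all of them and a threshold of 0.05. Identifiers without a symbol held 0.0674 to 0.0877% of the counts. Exon lengths and overlaps came from GENCODE M21 (GRCm38), promoter windows from RefSeq.

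The 36 genes and all lists were chosen with earlier results of these data known. All 36 are named. From each other list up to 2 genes per direction could be named, those with the greatest significant change and at least 1 CPM at an age compared, plus neighbours and relatives. Alternatives were RLE, upper-quartile and library-size scaling, 2 other filters, a replicate block, DESeq2 1.42.0, limma-voom (limma 3.58.1), fits of 2 ages, and libraries left out singly and as a set of 3. Libraries of an age differed by more than sampling noise (chi-square per degree of freedom from 9.86 to 28.9), so each counted as 1 replicate.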

Additional observations from a re-analysis of the deposited data

How the results depend on the processing

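The number of imprinted genes past the threshold stayed within 1.5 times its value under every alternative run. Leaving out 1 library at a time gave 19 to 24 genes for E13 against E11, 24 to 27 for E17 against E13, 16 to 21 for P1 against E17, 28 to 30 for P1 against E11 and 31 to 32 across the 4 ages. The 3 animals of an age are from separate litters, and the reported test did not pair libraries by replicate letter. Same-letter libraries of different ages had a correlation of deviations from -0.442 to 0.403, and 4 of 12 libraries matched their own letter best. These values do not settle whether a letter marks anything shared between ages. With the letter as a replicate block the counts were 22, 26, 18, 29 and 31. With 3 libraries (E11 C, E13 C and also E17 A) left out they were 19, 25, 19, 30 and 31.

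Of 129 single values past the threshold, 113 passed under every alternative and 16 missed it under at least 1, among them Dlk1 at its first 2 steps and Sgce, Usp29, Inpp5f and Gnas from E17 to P1. Another 15 passed only under an alternative. Library size alone moved the median of all genes to -0.22 (E17 against E13) and -0.26 (P1 against E11). The sign changed in 43 of 3698 alternative values, none of a gene past the threshold in the reported test. All values of these are log2 changes.
Airn (E17 to P1, -0.12 as reported) had values from -0.33 to 0.06 without 1 library. Blcap (E11 to E13, 0.01 as reported) had -0.04 with upper-quartile factors, -0.02 with library size alone, 0.00 with the filter at 1 CPM in 3 libraries, -0.08 with the 3 libraries left out and values from -0.04 to 0.06 without 1 library. Gnas (E11 to E13, -0.03 as reported) had values from -0.05 to 0.01 without 1 library. Gnas (E11 to P1, 0.03 as reported) had -0.07 with upper-quartile factors and -0.20 with library size alone. Impact (E11 to E13, -0.06 as reported) had 0.06 with the 3 libraries left out and values from -0.12 to 0.05 without 1 library. Impact (E13 to E17, 0.05 as reported) had -0.03 with upper-quartile factors, -0.13 with library size alone and values from -0.01 to 0.12 without 1 library. Impact (E11 to P1, 0.13 as reported) had -0.10 with library size alone. Kcnq1ot1 (E11 to P1, -0.15 as reported) had 0.13 with the 3 libraries left out and values from -0.30 to 0.13 without 1 library. Kcnq1ot1 (E17 to P1, 0.06 as reported) had values from -0.08 to 0.17 without 1 library. Magel2 (E17 to P1, 0.09 as reported) had values from -0.05 to 0.30 without 1 library. Ndn (E17 to P1, 0.09 as reported) had -0.07 with the 3 libraries left out and values from -0.05 to 0.35 without 1 library. Rasgrf1 (E17 to P1, -0.02 as reported) had 0.00 with RLE factors, 0.01 with upper-quartile factors or DESeq2 and values from -0.22 to 0.22 without 1 library. Slc22a18 (E17 to P1, 0.11 as reported) had -0.07 with the 3 libraries left out and values from -0.05 to 0.30 without 1 library. Trappc9 (E17 to P1, 0.01 as reported) had -0.03 with the 3 libraries left out and values from -0.01 to 0.05 without 1 library. Ube3a (E13 to E17, 0.06 as reported) had -0.02 with upper-quartile factors and -0.13 with library size alone. Zim1 (E17 to P1, -0.10 as reported) had values from -0.19 to 0.13 without 1 library.
The cause of these changes was not tested.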
